A study of Homo sapiens with 2 samples.

Results

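The heat shock proteins and DNAJ co-chaperones are described here as 62 genes of the 18453 that had a probe of their own on the array. A gene was taken when a probe named it alone and its symbol began with HSPA, HSPB, HSPH, HSP90, DNAJA, DNAJB or DNAJC, or was HSPD1, HSPE1, CRYAB, BAG3 or HSF1. HSPBAP1 and HSPBP1, which bind heat shock proteins without belonging to their families, were left out. The choice used symbols and no measured values.

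The cells were HaCaT, keratinocytes from human skin that became immortal spontaneously in culture. The arsenic-exposed cells lived in 0.5 µg/ml arsenic trioxide until passage 22, and the passage control cells were carried to passage 22 without it. Each group was 1 line of cells with 4 RNA preparations, described as technical replicates, and 3 arrays for each preparation, or 24 arrays in all. The deposited table merges these into 1 intensity with 1 error for each probe in a group. The spread between arrays is therefore not shown, and exposure cannot be told apart from drift between the lines. In RNA from whole cultures, fewer cells making a transcript and less of it per cell cannot be told apart either.

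Heat shock proteins are molecular chaperones that keep other proteins folded. HSP70 proteins (HSPA genes) bind unfolded stretches in a cycle driven by ATP, J-domain proteins (DNAJ genes) bring clients to them and start the hydrolysis of ATP, and HSP110 proteins (HSPH1, HSPA4, HSPA4L) exchange the nucleotide. HSP90 matures signalling proteins, the small heat shock proteins (HSPB genes, CRYAB) hold unfolding proteins in solution, and HSPD1 with HSPE1 forms the folding chamber of mitochondria. Trivalent arsenic binds thiol groups of proteins, and short exposures are a classical inducer of the heat shock transcription factor HSF1, which binds inverted repeats of the unit GAA in the promoters of many of these genes.

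After long exposure 5 of the 30 genes that could be tested, among the 62, were called different, where 5.69% of all tested genes were called. All 5 were J-domain protein genes, a group that made up 17 of the 30. DNAJC6, DNAJA4, DNAJA3 and DNAJB6 were higher in exposed cells relative to the median gene, by 1.06, 0.69, 0.42 and 0.35 on the log2 scale, and DNAJB2 was lower, at -0.74. The log2 ratios of DNAJA3 and DNAJB6 turned to -0.0065 and -0.075 without centring on that median, and the calls of DNAJB6 and DNAJC6 rested on 1 of 2 measured probes. DNAJB2 lost its call when the deposited p-values were adjusted over all probes, with an adjusted p of 0.0527. None of the 12 measured genes of the HSP families was called, and no other test could be run. Of these 12, 2 (HSPH1 and HSPB1) had an unadjusted p below 0.05 in the authors' deposited table, where 13.6% of all tested genes did. Of all 30 measured members 9 had one, 7 of them above 0 and 2 below. HSP90 genes were not among the 12, as they had no probe of their own. Of 15 measured probes that name several genes, 3 were called higher, against 2.43% of all measured probes. All 3 named HSP90 genes, and the called HSP90B1 probe lay at -0.023 without centring. HSPA6, a gene that is nearly silent without stress, was detected in neither group.

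A log2 ratio here is that of deposited intensities, exposed over control, minus its median over the 9915 probes detected in both groups. That median was -0.43, so intensities were in general lower in exposed cells. After an intensity, ± gives the error as deposited, of unstated basis and no SD. After a log2 ratio it gives the error propagated from those of both groups. Calls rest on the p-value of the comparison in the authors' deposited table, with Benjamini-Hochberg adjustment done here across 7682 genes and a limit of 0.05. By this rule 3.12% of all genes were called higher and 2.56% lower, against 4 and 1 of the 30 measured members. These p-values can at most reflect the spread of RNA preparations within 1 line, not of separate cultures.

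Of the 62 genes 30 were measured: 29 were detected in both groups at a detection p below 0.05 and DNAJC19 in exposed cells alone. The other 32 were detected in neither group. The 30 measured genes had a median log2 ratio of 0.18, against 0.0054 over all 7692 measured genes, and lay between -0.74 and 1.06. Above 0 were 19 and below 0 were 11, so that 63.3% lay above 0, against 51.01% of all measured genes. For 12 of the 30 the log2 ratio was smaller than its own error. With at least 1.5-fold as the rule, 5 members were higher and 1 lower, where 3.54% and 3.5% of all measured genes were. Without centring the members' median was -0.26 and that of all genes -0.43, and 6 members stayed above 0. DNAJC19 has no ratio without centring.

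**Figure D1:**
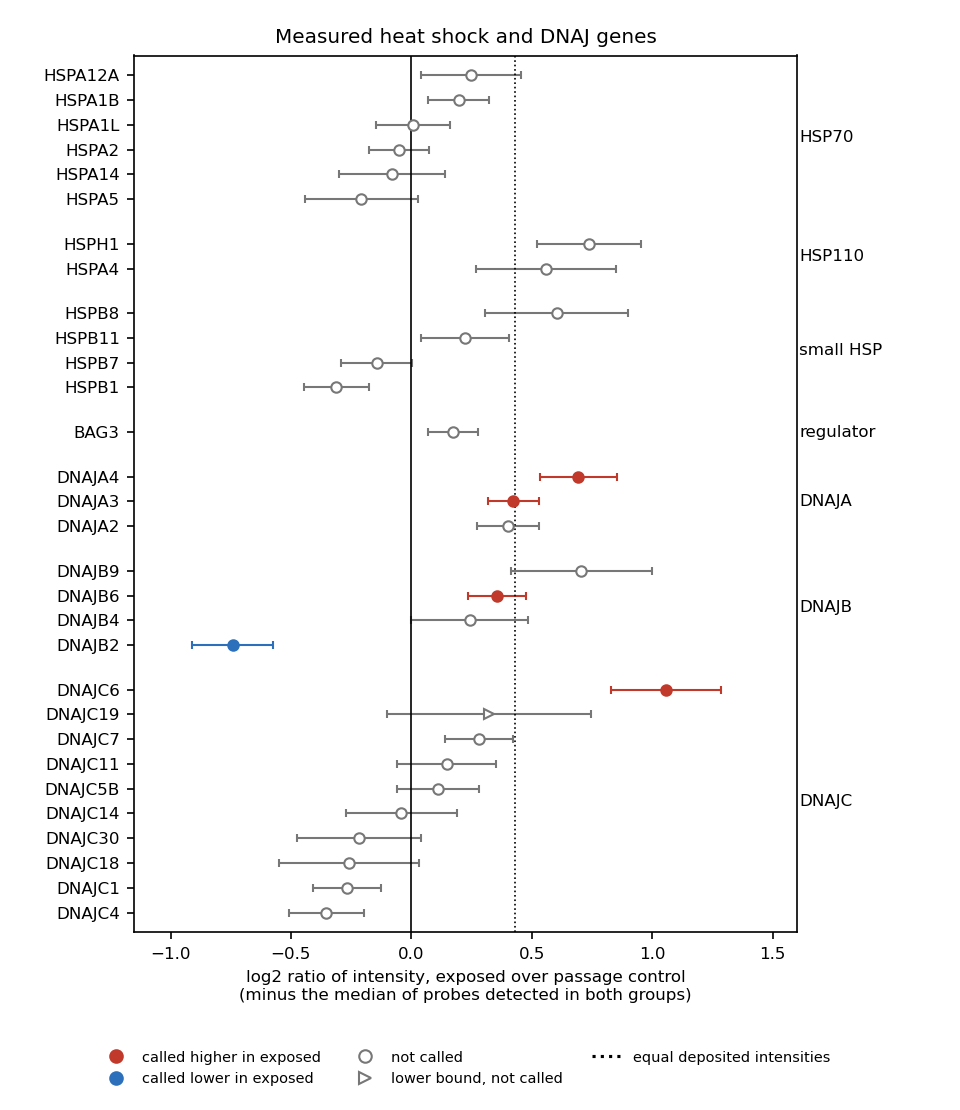
Centred log2 ratio of intensity, exposed over passage control, for the 30 measured genes by chaperone class. Points are ratios from the deposited combined intensities, bars are propagated errors, filled points are called genes, the triangle is a lower bound, and the dotted line marks equal deposited intensities. The 4 filled points above 0 and the 1 below 0 are J-domain protein genes, and DNAJA3 and DNAJB6 lie at or left of the dotted line, where the ratio without centring is below 0.

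Promoters are shown for 2 called genes, DNAJA4 and DNAJB6, for HSPB1, the small heat shock gene whose adjusted p came nearest to a call on the lower side, and for HSP90AB1, whose probes name a pseudogene too and are described further on. Sequences are RefSeq's for GRCh38.p14, from 250 bases before to 50 bases after a transcript start, read 5′ to 3′ on the gene's strand. Capitals mark paired units of the heat shock element, searched as TTCNNGAA or GAANNTTC, each of which is its own reverse complement, with overlapping matches joined.
DNAJA4, chr15:78264312-78264611, + strand: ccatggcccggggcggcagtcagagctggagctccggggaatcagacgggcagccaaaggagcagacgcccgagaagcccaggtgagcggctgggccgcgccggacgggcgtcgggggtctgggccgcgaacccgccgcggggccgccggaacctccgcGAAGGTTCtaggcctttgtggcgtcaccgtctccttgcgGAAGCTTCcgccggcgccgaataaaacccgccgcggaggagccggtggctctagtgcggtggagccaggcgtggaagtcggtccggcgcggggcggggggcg
DNAJB6, chr7:157336754-157337053, + strand: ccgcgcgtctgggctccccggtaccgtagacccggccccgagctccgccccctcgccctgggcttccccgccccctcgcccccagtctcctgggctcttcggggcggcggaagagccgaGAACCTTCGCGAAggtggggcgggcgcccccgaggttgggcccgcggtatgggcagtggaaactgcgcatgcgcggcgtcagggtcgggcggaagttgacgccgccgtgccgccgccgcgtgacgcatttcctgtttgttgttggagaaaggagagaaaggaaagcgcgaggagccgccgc
HSP90AB1, chr6:44247693-44247992, + strand: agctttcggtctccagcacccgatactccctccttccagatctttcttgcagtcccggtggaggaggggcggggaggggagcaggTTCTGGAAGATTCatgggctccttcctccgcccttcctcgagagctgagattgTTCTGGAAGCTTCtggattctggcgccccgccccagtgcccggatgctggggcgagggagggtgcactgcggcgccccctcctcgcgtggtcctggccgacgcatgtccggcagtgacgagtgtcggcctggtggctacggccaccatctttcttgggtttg
HSPB1, chr7:76302423-76302722, + strand: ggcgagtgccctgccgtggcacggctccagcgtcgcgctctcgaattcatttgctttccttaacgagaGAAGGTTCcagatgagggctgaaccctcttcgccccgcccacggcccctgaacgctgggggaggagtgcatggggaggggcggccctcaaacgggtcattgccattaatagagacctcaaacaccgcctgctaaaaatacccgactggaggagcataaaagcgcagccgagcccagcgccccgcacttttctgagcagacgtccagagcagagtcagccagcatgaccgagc

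In DNAJA4 there were 2 separate pairs, the first beginning at position -91 from the start, at 1 of the 3 starts in the table. In DNAJB6 2 overlapping pairs formed a run of 3 units, searched as TTCNNGAANNTTC or GAANNTTCNNGAA. HSP90AB1 held 2 such runs at 1 of its 3 starts and HSPB1 a single pair at -182. A pair was held by 13.5% of all 35116 RefSeq promoters and a run of 3 units by 0.490%. Promoters were found for 54 of the 62 genes, and they comprised 69 windows, of which 21.7% held a pair and 4.35% a run of 3 units. By gene, 15 of the 54 had a pair and 3 a run of 3 units at 1 start or more. Of all 27305 genes with a promoter, 4417 had a pair and 166 a run of 3 units. Among the called genes, DNAJC6 also held a pair, while DNAJA3 and DNAJB2 held none in these windows. HSPA6, which was not detected, held 3 pairs. A match describes these letters and does not show that HSF1 binds there.

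The class A J-domain proteins, DNAJA genes, are the closest relatives of the bacterial DnaJ protein and work as general partners of HSP70. All 3 members were measured and lay above 0, DNAJA4 alone without centring, and DNAJA4 and DNAJA3 were called higher. DNAJA1 was not read, as no probe used here named it under this symbol, alone or with other genes. DNAJA4, a cytosolic class A protein, had an intensity of 243 ± 16.7 in exposed cells and 203 ± 17.8 in control cells. The exposed value was the higher one even before centring. Its log2 ratio was 0.69 ± 0.16, with an adjusted p of 0.0127. In the authors' deposited table the value was 0.68.

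DNAJA3, the class A protein of mitochondria, read 694 ± 42.5 in exposed cells and 697 ± 28.7 in control cells. The deposited intensities were thus equal within their errors, and the log2 ratio of 0.42 ± 0.11 arose relative to the median gene (-0.0065 without centring). The authors' deposited table, already centred near 0, gave 0.40, and the adjusted p was 0.0139. DNAJA2, another cytosolic member, showed the same kind of values, 842 ± 65.5 in exposed cells and 858 ± 37.1 in control cells. Its log2 ratio of 0.40 ± 0.13 came with an adjusted p of 0.0939 and was not called.

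Class B proteins, DNAJB genes, include stress-inducible partners of HSP70 and proteins that act on aggregates. Of 11 members 4 were measured, and 1 was called higher and 1 lower. DNAJB2, a J-domain protein known in neurons for handing ubiquitin-tagged clients to the proteasome, had the lowest log2 ratio of all 30 genes. It read 226 ± 17.2 in exposed cells and 510 ± 44.8 in control cells, well apart relative to both errors. It fell 1.67-fold, at -0.74 ± 0.17 on the log2 scale, and the authors' deposited table lists -0.67. Its adjusted p was 0.0428, and 0.0527 when adjusted over all probes, which ends the call.

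DNAJB6, a strong suppressor of protein aggregation, had 2 measured probes that disagreed. The first read 1927 ± 117 in exposed cells and 2029 ± 113 in control cells, and was called with a log2 ratio of 0.35 ± 0.12 (-0.075 without centring) and an adjusted p of 0.0193. The second read 1300 in exposed and 1763 in control cells and had a log2 ratio of -0.0096 ± 0.12. The probes differed by 0.36 ± 0.17. The deposited annotation lists 14 transcripts for the first probe and 3 for the second, and all 3 are among the 14.

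DNAJB9, an ER-resident co-chaperone induced by the unfolded protein response, read 139 ± 23.1 in exposed cells and 115 ± 13.4 in control cells. Its log2 ratio of 0.71 ± 0.29 was above that of DNAJA4 and had an adjusted p of 0.322. Both readings were near the lowest detected intensities, 54.4 in exposed and 81.7 in control cells. DNAJB4, a cytosolic partner of HSP70, had a log2 ratio of 0.24 ± 0.24. DNAJB1, the main heat-inducible class B gene, had no probe of its own. A probe that names DNAJB1 with a clone-named locus read 36.9 in exposed and 39.4 in control cells and was detected in neither.

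Class C, DNAJC genes, gathers proteins that carry the J domain in otherwise unrelated contexts, and 10 of its 26 members were measured. DNAJC6 encodes auxilin, which brings HSP70 to clathrin coats and is best known in neurons. Its brighter probe read 192 ± 22.1 in exposed cells and 124 ± 13.5 in control cells. This was the highest log2 ratio of the 30 genes, 1.06 ± 0.23 (0.63 without centring), with an adjusted p of 0.0182. It amounts to a 2.08-fold rise relative to the median gene. Both readings were below 200, near the lowest detected intensities of 54.4 in exposed and 81.7 in control cells. The authors' deposited table lists 0.84. A second DNAJC6 probe read 47.1 in exposed cells, where it was not detected, and 83.8 in control cells. Its log2 ratio had an upper bound of -0.19 ± 0.30, smaller than its error, and gives no direction of its own. The 2 probes nevertheless disagreed, with a difference of at least 1.25 ± 0.38. The annotation lists 3 transcripts for the first and 1 of these for the second. The call therefore rests on the first probe.

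The other 9 measured class C genes were not called, and 4 lay above 0 and 5 below. DNAJC7, a TPR protein that links HSP70 and HSP90, read 5460 ± 474 in exposed cells and 6050 ± 278 in control cells. Its log2 ratio was 0.28 ± 0.14 with an adjusted p of 0.749. DNAJC4 read 176 ± 12.03 in exposed cells and 304 ± 25.4 in control cells, and had the lowest value of the class, -0.35 ± 0.16, with an adjusted p of 0.474. DNAJC11, a protein of the mitochondrial inner membrane organising complex, had 2 measured probes, at 0.15 ± 0.21 and 0.32 ± 0.14. They differed by less than the error of their difference. DNAJC30, also mitochondrial, read 323 ± 47.7 in exposed cells and 506 ± 51.4 in control cells, for -0.22 ± 0.26, and DNAJC5B, a relative of a cysteine string protein of vesicles, had 0.11 ± 0.17.

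DNAJC19, a protein of the mitochondrial import motor, read 75.9 in exposed cells and an undetected 79.3 in control cells. The lowest detected intensity of control cells was 81.7. Only after centring was DNAJC19 higher in exposed cells, at least 1.25-fold against that floor. That bound is smaller than its error, and the adjusted p was 0.999.

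**Figure D2:**
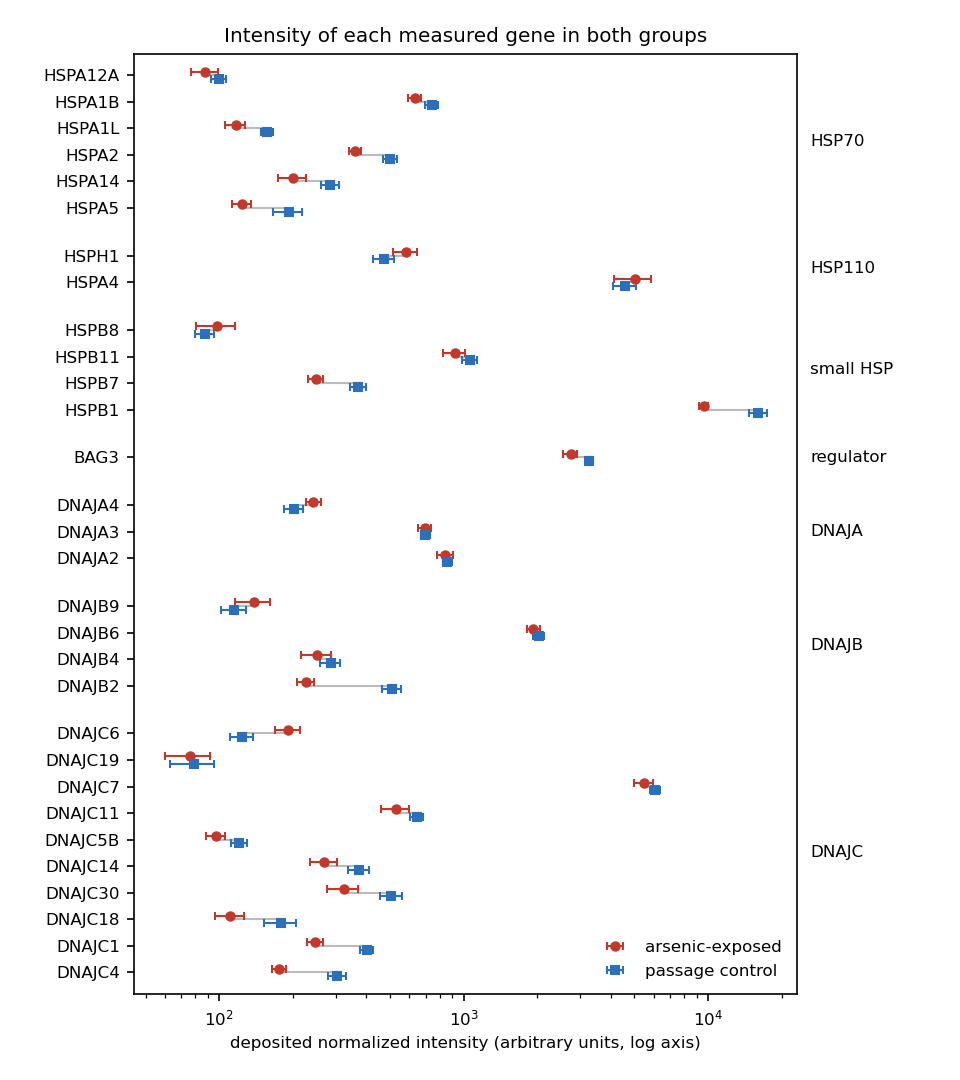
Deposited normalized intensity on a log axis for each measured gene, arsenic-exposed cells in red and passage control cells in blue, with the deposited errors as bars. Exposed values lie left of control values for 24 of the 30 genes. Before centring, DNAJB2, HSPB1, DNAJC1 and DNAJC4 show wide gaps relative to their bars. DNAJB2 read 226 in exposed against 510 in control cells, and HSPB1 9582 in exposed against 16012 in control cells. HSPB1, DNAJC1 and DNAJC4 were not called, with centred log2 ratios of -0.31, -0.27 and -0.35.

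HSP70 genes showed no called change. Of 8 members 6 were measured, 0 of them with an unadjusted p below 0.05 against 13.6% of all tested genes, too few genes to read anything from that count. There were 3 above and 3 below 0, with a median of -0.021 and a range from -0.21 to 0.25. HSPA1B, the gene of a major stress-inducible HSP70, read 631 ± 38.1 in exposed cells and 741 ± 46.9 in control cells. Its log2 ratio was 0.20 ± 0.13, with 0.19 in the authors' deposited table and an adjusted p of 0.563. HSPA1L and HSPA2, whose proteins are abundant in testis, had log2 ratios of 0.0074 ± 0.15 and -0.050 ± 0.12, well inside their errors. HSPA14, a ribosome-associated member, had -0.079 ± 0.22 and HSPA12A, a distant relative, 0.25 ± 0.21.

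HSPA5, the HSP70 of the ER, known as BiP, read 124 ± 11.3 in exposed cells and 193 ± 26.1 in control cells. Its log2 ratio was -0.21 ± 0.24, with an adjusted p of 0.999. HSPA6 read 29.8 in exposed cells with a detection p of 0.741 and 43.1 in control cells with a detection p of 0.850. HSPA13, the microsomal HSP70, appears under an older symbol that the rule does not take, and was detected in neither group.

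The HSP110 genes were the class with the highest median log2 ratio among those with 2 or more measured genes, 0.65 (0.22 without centring), although neither was called. HSPH1, a heat-inducible exchange factor, read 582 ± 65.3 in exposed cells and 471 ± 46.5 in control cells. Its log2 ratio was 0.74 ± 0.22, and a second probe with 124 in exposed and 111 in control cells gave 0.59 ± 0.24. These probes differed by less than the error of their difference. The authors' deposited table gave 0.62 and 0.64 for them, and the adjusted p of HSPH1 was 0.226. HSPA4 read 5001 ± 867 in exposed cells and 4573 ± 480 in control cells, which gives 0.56 ± 0.29 on the log2 scale. The authors' deposited table lists 0.25, and the adjusted p was 0.999. HSPA4L was detected in neither group.

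Small heat shock proteins went in both directions without a call. HSPB1, or HSP27, is a chaperone and actin regulator that keratinocytes express strongly as they differentiate. It read 9582 ± 381 in exposed cells and 16012 ± 1355 in control cells, so the values lay apart relative to their errors. Its log2 ratio was -0.31 ± 0.13, and -0.32 in the authors' deposited table, with an adjusted p of 0.0872. HSPB8, which works with BAG3 to send clients to autophagy, read 98.3 ± 18.1 in exposed cells and 87.2 ± 7.85 in control cells. That gave 0.60 ± 0.30 with an adjusted p of 0.513, from readings close to the detection floor.

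HSPB7, a small heat shock protein of muscle, had -0.14 ± 0.15, and HSPB11, now named IFT25 and part of the ciliary transport machinery, had 0.22 ± 0.18. HSPB2, HSPB6 and HSPB9 were detected in neither group. HSPB3, a muscle gene, read 18.5 in exposed cells and 85.3 in control cells, where its detection p was 0.0885, so it missed detection and has no ratio. The eye lens and muscle gene CRYAB, and HSPE1, had no probe that named them alone among those used here.

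The regulators gave 1 measured gene. BAG3, a co-chaperone of HSP70 that is itself induced by HSF1, read 2737 ± 177 in exposed cells and 3273 ± 104 in control cells. Its log2 ratio of 0.17 ± 0.10 had an adjusted p of 0.975. The HSF1 probe read 3.97 in exposed and 13.6 in control cells, with detection p-values of 0.99993 and 0.99975, and gives no information on HSF1 in either group. The single probe naming HSPD1 alone, at 15.9 in exposed and 23.8 in control cells, was also undetected.

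By compartment, members of the cytosol and nucleus had a median log2 ratio of 0.24 (-0.19 without centring) over 17 measured genes, with 2 called higher and 1 lower. Mitochondrial members had 0.23 over 4, with DNAJA3 called higher. Their median without centring, -0.28, leaves out DNAJC19, which has a ratio only after centring. Members of vesicles and endosomes had 0.58 (0.15 without centring) over 2, DNAJC6 and DNAJC5B, with DNAJC6 called higher. ER members had -0.21 (-0.64 without centring) over 5, with 4 below 0 and none called, and DNAJB9 as the exception above 0. DNAJC1, an ER membrane protein, read 247 ± 19.1 in exposed cells and 401 ± 23.9 in control cells, for -0.27 ± 0.14. DNAJC18 and DNAJC14, also in the ER membrane, had -0.26 ± 0.29 and -0.042 ± 0.23. The ER co-chaperones DNAJB11, DNAJC3 and DNAJC10 were detected in neither group. The difference between compartments was not tested.

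The undetected genes included several whose expression is known mainly from testis, such as DNAJB7, DNAJB8, DNAJB13 and DNAJC5G. Among the 32 undetected genes the highest intensities were 33.2 in exposed cells and, for HSPB3, 85.3 in control cells. An undetected probe says only that its signal was not above background, and 16 of the 62 genes had several probes that could differ in this. DNAJB6, DNAJC7 and HSPB11, for example, each had a detected probe and an undetected one.

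Several of the best known heat shock genes were represented only by probes that name more than 1 gene, often processed pseudogenes of the same family. There were 17 such probes, of which 15 were measured, 13 above 0 and 2 below, with a median log2 ratio of 0.33. Without centring 4 of the 15 lay above 0. With p-values adjusted over all 14401 probes that have one, 3 were called higher and 0 lower, and 4 above 0 and 0 below had an unadjusted p below 0.05 in the authors' deposited table, where 12.1% of all measured probes did. By the adjusted limit 2.43% of all measured probes were called higher and 2.08% lower. All 3 called probes named HSP90 genes. These probes are not counted among the 62 genes.

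HSP90AB1, the constitutive cytosolic HSP90, shared both its probes with the pseudogene HSP90AB3P. The first read 10802 ± 758 in exposed cells and 10497 ± 624 in control cells, for a log2 ratio of 0.47 ± 0.13 and an adjusted p of 0.0270. The second read 1548 ± 73.8 in exposed cells and 1384 ± 64.9 in control cells, for 0.59 ± 0.096 and an adjusted p of 0.00124. The probes were thus alike in direction, with exposed values the higher ones before centring as well.

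HSP90B1, the HSP90 of the ER, shared a probe with a pseudogene and LRRC28 that read 13332 ± 722 in exposed cells and 13543 ± 615 in control cells. That probe was called, with 0.41 ± 0.10 and an adjusted p of 0.0477, but lay below 0 without centring, at -0.023. Its other shared probe had 0.34 ± 0.23 and was not called. A probe listed for HSP90AA2 had 0.29 ± 0.25. No probe used here named HSP90AA1 under this symbol.

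For HSPA8, the constitutive cytosolic HSP70, 2 shared probes gave different values. The first read 2833 ± 424 in exposed cells and 2154 ± 169 in control cells, for 0.83 ± 0.24, while the authors' deposited table gave 0.46. The second read 1684 in exposed and 2043 in control cells, for 0.15 ± 0.22, and neither was called, with adjusted p-values of 0.80 and 0.9998. Both probes common to HSPA1A and HSPA1B, near-identical genes, lay above 0, at 0.48 ± 0.17 and 0.38 ± 0.17, with adjusted p-values of 0.192 and 0.499. Probes shared by HSPD1 with other loci had 0.33 ± 0.21 and 0.30 ± 0.88, and the HSPE1 probe 0.29 ± 0.27. The HSPA9 probe, under the older symbol HSPA9B, had -0.020 ± 0.18.

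**Figure D3:**
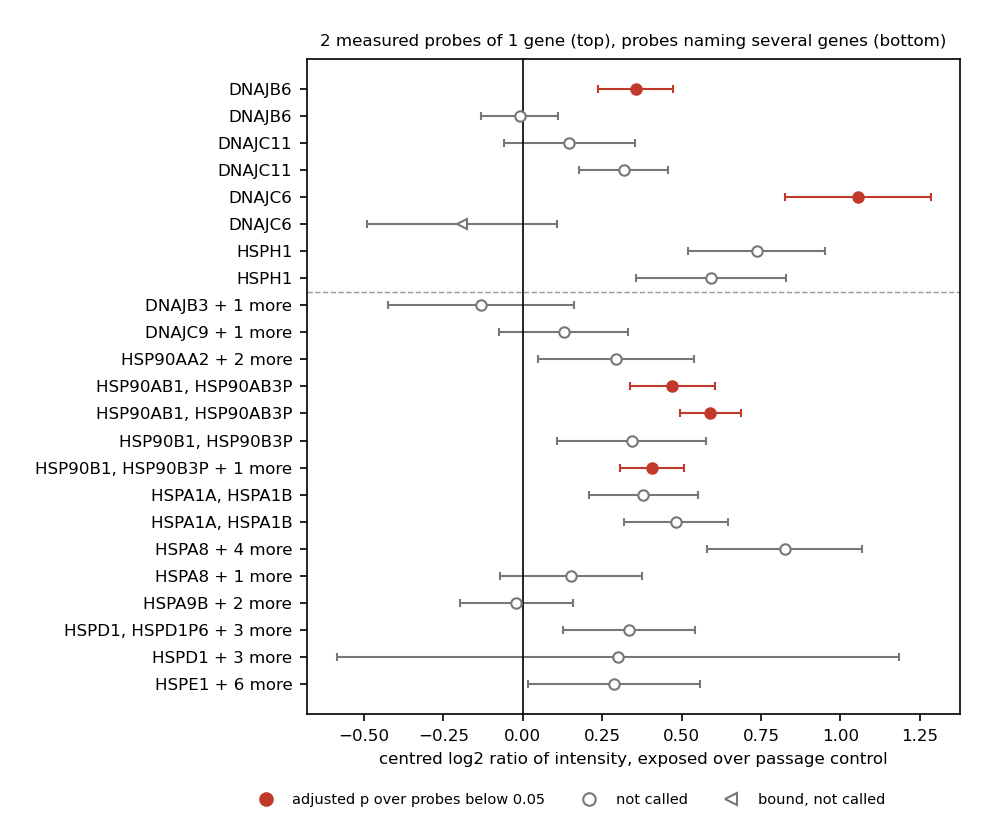
Centred log2 ratio with propagated error for the 4 genes with 2 measured probes, above the dashed line, and for the 15 measured probes that name several genes, below it. Filled points have a p-value below 0.05 after adjustment over all probes, and the triangle is a bound. The called DNAJC6 probe lies at 1.06 and the other, a bound smaller than its error, at -0.19, while the HSPH1 probes lie together at 0.74 and 0.59. The filled HSP90B1 probe lies at -0.023 without centring.

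Outside the families named by the rule, 74 further genes of the folding machinery were taken in 8 lists. Of these 43 were measured, with a median log2 ratio of 0.27 (-0.16 without centring), 36 above 0 and 7 below. Called higher were 3 and called lower 0, against 3.12% and 2.56% of all genes. Of the genes above 0, 8 had an unadjusted p below 0.05 in the authors' deposited table, and of those below 0, 0 had one, against 13.6% of all tested genes in either direction. FKBP4, an immunophilin that works with HSP90 on steroid receptors, was the called gene among 9 measured HSP90 co-chaperones. TRAP1 and CLPB were the called genes among 4 measured in the list of mitochondrial folding and proteolysis.

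TRAP1, the HSP90 of mitochondria, read 1767 ± 159 in exposed cells and 1555 ± 97.5 in control cells, for 0.61 ± 0.16 on the log2 scale and an adjusted p of 0.0369. CLPB, a mitochondrial protein disaggregase, read 2068 ± 128 in exposed cells and 1827 ± 72.3 in control cells, for 0.61 ± 0.11 and an adjusted p of 0.00564. Exposed values were the higher ones in both genes before centring. The protease gene LONP1 had 0.49 and the HSP70 exchange factor GRPEL1 of mitochondria 0.60, with adjusted p-values of 0.585 and 0.319. Of the 8 genes measured among mitochondrial members and this list, 7 lay above 0 (3 without centring) and 3 were called higher. In comparison, 51.01% of all measured genes lay above 0 and 3.12% of tested genes were called higher. These 8 leave out mitochondrial genes placed elsewhere, none of them called. They are GRPEL1, GRPEL2 at 0.20 with an adjusted p of 0.999, and genes read through shared probes. Those probes had -0.020 for HSPA9, 0.33 and 0.30 for HSPD1 and 0.29 for HSPE1.

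FKBP4 read 2220 ± 133 in exposed cells and 2084 ± 113 in control cells, for a log2 ratio of 0.52 ± 0.12 with an adjusted p of 0.000236. All 9 measured HSP90 co-chaperones lay above 0, where 51.01% of all measured genes did, with a median of 0.19 (-0.24 without centring). Among them were STUB1 at 0.28 and AHSA1, the activator of HSP90 ATPase, also at 0.19. PTGES3, UNC45A and NUDC were well inside their errors, NUDC at 0.038 ± 0.28 and -0.029 in the authors' deposited table. FKBP4 alone of the 9 had the higher intensity in exposed cells before centring. CCT subunits, which form the chaperonin of the cytosol, had a median of 0.28 (-0.15 without centring) over 8 genes. None was called, where 5.69% of all tested genes were. Of these 8, 3 had an unadjusted p below 0.05 in the authors' deposited table, against 13.6% of all tested genes. The smallest adjusted p-values there were 0.128 for TCP1 at 0.28, 0.175 for CCT2 at 0.57 and 0.365 for CCT5 at 0.38. Among 7 exchange factors and other HSP70 co-chaperones BAG1 had the lowest value, -0.51, with an adjusted p of 0.664.

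Of 6 other heat-inducible genes, among them SERPINH1, a collagen chaperone, at 0.30 and the ubiquitin gene UBB at 0.29, none was called, 0 had an unadjusted p below 0.05 against 13.6% of all tested genes, and 5 lay above 0, DEDD2 as a bound. ER chaperones outside the HSP names had a median of 0.14 (-0.29 without centring) over 6 genes, with no call. The disulfide isomerase P4HB had 0.39 there, SDF2L1 0.30 and the lectin chaperone CALR 0.26, with adjusted p-values of 0.346, 0.656 and 0.813. Over 3 prefoldin subunits, PFDN2, PFDN6 and VBP1, the median was 0.13 (-0.30 without centring). Neither HSF2 nor any other probed gene of the heat shock factor list was measured.

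**Figure D4:**
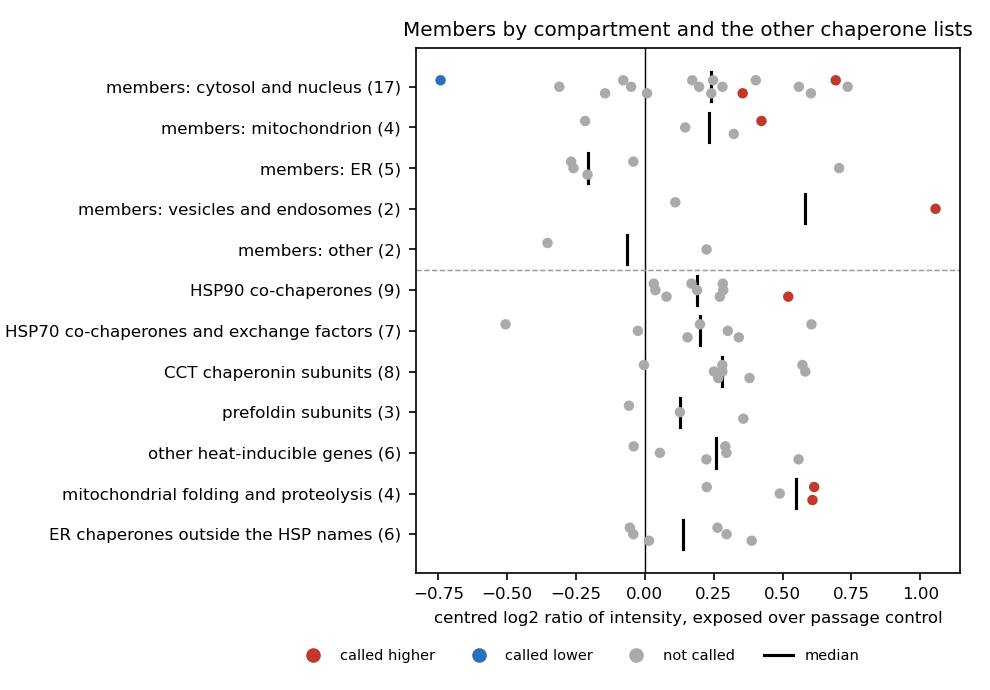
Centred log2 ratio of each measured gene, by compartment for the members of the rule (above the dashed line) and by list for the other chaperone genes (below it), with the number measured in parentheses and the median as a black bar, and with DNAJC19 and DEDD2 drawn at their bounds. The mitochondrial list has a median of 0.55 (0.12 without centring) with 2 of 4 genes called, and the ER members have a median of -0.21 with none called. Called DNAJA3 and DNAJB6 lie below 0 without centring.

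The series as a whole had 10340 probes detected in exposed cells and 10238 in control cells, of 30968. The keratinocyte markers KRT5, SFN, TP63, ITGA6, PKP1 and DSG3 were detected in both groups. Of 14 probed markers of melanocytes, fibroblasts, leukocytes and endothelium, 6 were detected in exposed and 5 in control cells. PMEL, COL1A1, LUM, CD68 and CDH5 were detected in both groups and COL1A2 in exposed cells alone, while MLANA, DCT, COL3A1, DCN, PTPRC, CD3E, LYZ and VWF were detected in neither. The summed intensities of the lists were 281 in exposed and 384 in control cells for melanocytes, 426 in exposed and 696 in control cells for fibroblasts, 379 in exposed and 375 in control cells for leukocytes, and 252 in exposed and 410 in control cells for endothelium. None of these markers was called, and their part in the results was not tested. Of the 3 genes that mark the heat shock group, only HSPB1 had a probe of its own, while HSPA8 and DNAJB1 could be read through shared probes alone.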

How the data were processed

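Amplified RNA of HaCaT cells was labelled with Cy5, per the labels' protocols. The scanner, software and methods of background correction and normalization were not given in the sources used here. The authors deposited normalized intensity values on a linear scale with errors, detection p-values, a log2 ratio and its p-value for 1 combination of 12 arrays per group, per the file headers. The series' value table held the same intensities to within 5.00e-07.

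From these, log2 ratios were computed and centred as stated, with errors propagated from the deposited errors. Of several probes of a gene the brightest was used. A probe detected in 1 group was kept as a bound where it was the brighter one after centring, with the other group at the higher of its value and its lowest detected intensity. Of 7692 genes measured, 448 were bounds, with a median log2 error of 0.21. Inference is limited by having 1 line of cells per group, which more arrays would not change.

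The planned limma fit needs values per array or preparation, so the deposited p-values were used, as the plan provided. Symbols were updated with RefSeq's table for GRCh38.p14, with 19445 probes matched, 3008 unmatched and 482 whose identifier named another gene and kept the file's symbol. HSPB11 keeps the file's name. Members, classes, lists and tests were chosen with earlier results of these data known. Named were all called members, the brightest members of each class, members with several probes or detected in 1 group, and of each other list the called genes or those with the smallest adjusted p. Other genes were named after their values were seen. The centring and the adjustment were tested on simulated data, with p-values from the propagated errors and planted changes larger than those of the called members. The deposited p-values, on which the calls rest, were not tested. Python 3.11.15, pandas 2.3.3 and matplotlib 3.10.9 were used.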

Additional observations from a re-analysis of the deposited data

Results flagged for a closer look

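Outside the gene-level comparison, signal in 3 probes that name several genes passed the limit of 0.05 after adjustment over all probes. Both probes shared by HSP90AB1 and HSP90AB3P were higher in exposed cells, with log2 ratios of 0.59 and 0.47. The probe shared by HSP90B1, HSP90B3P and LRRC28 had 0.41, and -0.023 without centring. How much each named locus gives to these signals was not tested.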

How the results depend on the processing

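Of 43 summary values recomputed under 9 alternatives, 36 stayed within the limits set. Without centring the members' median was -0.26, DNAJC19 having no ratio there, with 2 called higher and 3 lower. The counts moved because DNAJA3 turned to -0.0065 and DNAJB6 to -0.075. Both genes kept their deposited p-values, which belong to log2 ratios of 0.40 and 0.32 in the authors' deposited table. Their count as lower is thus a change of sign and shows no fall. Members called higher were also 2, against 4, with the mean of all probes of a gene, which takes the largest deposited p of its measured probes and ends the calls of DNAJB6 and DNAJC6. They were 2 as well when genes below the median intensity in both groups were left out, which removed DNAJA4 and DNAJC6. A limit of at least 1.5-fold also gave 2. With p-values adjusted over all probes, members called lower were 0, against 1. Quantile normalization, an offset of 32, the ratio in the authors' deposited table and a detection limit of 0.01 moved none of these counts by more than 1.5 times. Of 70 values of the 8 called genes, 62 kept their direction and call, 6 lost the call and 2 reversed. The 70 hold no value of DNAJA4 or DNAJC6 under the intensity limit that removed them. No paired analysis was possible because the files hold 1 combined value per group. Replicates could not be left out for the same reason. Of the 30 measured members, 9 read below 200 in both groups, near the detection floor.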
